A study of Homo sapiens with 6 samples.

Results

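Semaphorins are guidance proteins that signal through plexin receptors, and 10 genes of these families were followed in Raji B cells depleted of the coactivator OBF1. They are 5 semaphorins (SEMA7A, SEMA4A, SEMA4B, SEMA4C and SEMA4D) and 5 plexins (PLXNA1, PLXNB1, PLXNB2, PLXNC1 and PLXND1), out of 23459 genes in the count table and out of 29 semaphorin and plexin genes of the human genome, all of which have a row. The members were picked by name, with the difference between the groups in SEMA7A already known. Their differences between the groups are therefore a description, and the counts of members called by the fit over all genes support nothing.

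Raji is an established B cell line from a Burkitt's lymphoma, a tumour of germinal centre B cells. In the knockdown libraries the cells carried OBF1sh1, a lentiviral pLKO.1 short hairpin RNA (shRNA) against OBF1, the product of POU2AF1. In the control libraries they carried SHC002, a hairpin with no target. Both groups had 5 days with virus and then 7 days of selection in 3 μg/ml puromycin, and each group has 3 libraries. A single hairpin was used, so loss of OBF1 and any other action of that hairpin cannot be told apart.

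Semaphorins share a large extracellular sema domain, through which they bind the sema domain of plexins. Plexins carry a GTPase-activating domain inside the cell that acts on Ras and Rap proteins, and their signalling reshapes the actin cytoskeleton and weakens or strengthens integrin adhesion. In the immune system SEMA7A, SEMA4A and SEMA4D are known as membrane-bound regulators of lymphocytes and myeloid cells. In mice, plexin B2 is known from germinal centre B cells, where it is the partner of semaphorin 4C on follicular helper T cells.

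OBF1 acts with Oct factors on the octamer ATGCAAAT, so the promoters of the members were searched for it. RefSeq windows of 300 bases (build GRCh38.p14, 250 bases before to 50 after a start) were at hand for all 10 members, 18 windows in all. The octamer was in 0 of the 18 windows on either strand, and so was the looser form ATGCNAAT. Of all 35116 windows, 1.77% held the first and 2.97% the second, and of the windows of tested genes 1.45% and 2.16%. TATAAA was in 0 member windows, against 11.5% of all windows and 6.19% of those of tested genes. GGGCGG, the GC box, was in 14 of the 18, against 45.0% of all windows and 65.6% of those of tested genes. The exact octamer and the looser form overlap by construction. The member windows held between 52.3% and 87.3% G and C, against a median of 58.7% over all windows. The letters absent from these windows say nothing of sites elsewhere or of binding.

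The windows of SEMA7A and of its receptor gene PLXNC1, and that of the co-receptor gene NRP2, are shown because these genes carry the ligand and receptor results that follow. Capitals mark the GC box letters on either strand, and some matches overlap. SEMA7A lies at chr15:74433909-74434208 on the minus strand, PLXNC1 at chr12:94148327-94148626 and NRP2 at chr2:205682251-205682550, these on the plus strand. SEMA7A and PLXNC1 have further RefSeq windows, of which the most upstream is shown, and the counts do not tell which start was used.
SEMA7A: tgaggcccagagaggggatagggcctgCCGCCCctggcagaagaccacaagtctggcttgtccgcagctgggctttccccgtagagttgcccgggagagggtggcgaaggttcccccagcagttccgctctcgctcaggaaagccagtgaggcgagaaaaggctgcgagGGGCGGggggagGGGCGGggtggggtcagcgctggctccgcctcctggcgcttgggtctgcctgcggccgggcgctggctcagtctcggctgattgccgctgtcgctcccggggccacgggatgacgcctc
PLXNC1: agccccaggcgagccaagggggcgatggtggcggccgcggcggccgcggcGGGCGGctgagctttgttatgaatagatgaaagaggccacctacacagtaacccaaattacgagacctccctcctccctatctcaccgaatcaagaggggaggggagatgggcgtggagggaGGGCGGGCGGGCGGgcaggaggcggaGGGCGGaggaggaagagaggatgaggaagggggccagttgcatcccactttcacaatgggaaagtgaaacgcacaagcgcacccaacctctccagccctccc
NRP2: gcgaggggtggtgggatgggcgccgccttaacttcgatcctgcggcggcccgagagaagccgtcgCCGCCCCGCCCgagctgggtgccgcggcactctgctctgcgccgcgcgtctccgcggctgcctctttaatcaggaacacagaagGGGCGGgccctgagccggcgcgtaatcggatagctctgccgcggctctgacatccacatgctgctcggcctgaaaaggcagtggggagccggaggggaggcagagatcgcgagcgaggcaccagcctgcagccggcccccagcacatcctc

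No window was at hand for SEMA3A, SEMA6A and SEMA6B, so these were not searched. Among the windows at hand for the other semaphorins and plexins, a single window of SEMA3F held the exact octamer, starting 52 bases before that start. It is shown as chr3:50154995-50155024 on the plus strand, with the octamer in capitals.
SEMA3F: ggggctgcgctATGCAAATgtcgcccacgg
SEMA3F, a secreted semaphorin that binds neuropilin 2, had 1, 1 and 0 reads in OBF1 shRNA libraries and 3, 0 and 0 reads in control libraries, at or under a floor of 3 reads per library.

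Total counts ranged from 29569281 to 32612429 per library. The targeted gene POU2AF1 was 2.12-fold lower in OBF1 shRNA libraries, at 242 ± 1.66 CPM in OBF1 shRNA and 514 ± 2.15 CPM in control libraries (SD, n = 3). CPM are normalised read counts per 1000000 reads. The B cell markers MS4A1, CD79A, CD79B, PAX5 and CD22 all passed the low-count filter. The 3 germinal centre markers BCL6, MME and CD38 summed to between 312 and 317 CPM in OBF1 shRNA libraries and between 638 and 658 CPM in control libraries. The 8 myeloid markers summed to between 1.97 and 2.23 CPM in OBF1 shRNA and between 2.27 and 2.32 CPM in control libraries, with S100A9 at 0. Within this sum CD14, LYZ and CD33 were lower in every OBF1 shRNA library than in any control library, while ITGAM was higher. LYZ had 6, 4 and 4 reads in OBF1 shRNA and 19, 15 and 24 reads in control libraries. ITGAM had 26, 49 and 43 reads in OBF1 shRNA and 18, 28 and 18 reads in control libraries. For 7 markers of T and NK cells the sum lay between 0.879 and 1.02 CPM in OBF1 shRNA and between 0.160 and 0.268 CPM in control libraries, with CD3D and GNLY at 0. The 6 markers of 293T cells, which packaged the virus, summed to between 0.0638 and 0.0984 CPM in OBF1 shRNA and between 0.190 and 0.476 CPM in control libraries, with KRT18, CDH2 and NEFM at 0. Whether the 3 libraries of each group are separate cultures is not stated in the labels. The p-values therefore reflect how far these libraries spread, and that spread could be technical.

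SEMA7A, a semaphorin anchored to the membrane by a glycolipid, stood far above the other members in its difference between the groups. It had 143, 138 and 142 CPM in OBF1 shRNA libraries, against 3.49, 4.29 and 4.28 CPM in control libraries. The groups lay far apart, and the libraries within each differed little beside that gap. The mean was 141 ± 2.49 CPM in OBF1 shRNA and 4.02 ± 0.459 CPM in control libraries (SD, n = 3), a log2 fold change of 5.13 (SE 0.055) or 35.0-fold. By fold change it ranked at place 15 from the top among 12010 genes that passed the low-count filter. Divided by gene length, its level moved to percentile 85.0 of the tested genes in OBF1 shRNA libraries, against percentile 16.9 in control libraries. The germinal centre marker sum above also differed between the groups, and its part in the SEMA7A difference was not tested. In bulk RNA, more cells that express a gene and more of its RNA per cell cannot be told apart.

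SEMA4A, SEMA4B and SEMA4D, class 4 semaphorins that span the membrane, were higher in OBF1 shRNA libraries by far less. SEMA4A, known as a costimulator of T cells, had 5.17, 5.18 and 5.87 CPM in OBF1 shRNA libraries, against 2.88, 2.77 and 2.92 CPM in control libraries. The groups did not overlap, and the log2 fold change was 0.92 (SE 0.11), or 1.90-fold. SEMA4B, a class 4 semaphorin with a less defined immune role, had 29.0, 29.2 and 28.8 CPM in OBF1 shRNA libraries and 22.1, 21.6 and 20.6 CPM in control libraries, again without overlap. Its log2 fold change was 0.44 (SE 0.048), or 1.35-fold.

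SEMA4D, also known as CD100, is a lymphocyte semaphorin that binds plexin B1 and, on B cells, CD72. It had 27.1, 27.8 and 27.2 CPM in OBF1 shRNA libraries, against 24.0, 20.7 and 22.5 CPM in control libraries. The control libraries varied more than the knockdown ones, yet all lay below them, and the log2 fold change was 0.29 (SE 0.055). SEMA4D shares its locus with SECISBP2 in the annotation, so its reads are uncertain, as the strand setting of the counting is not given. SEMA4C, the partner of plexin B2, had 0, 1 and 2 reads in OBF1 shRNA libraries and 1, 0 and 1 reads in control libraries. Both groups lie under a floor of 3 reads per library, which is at most 0.106 CPM, so no fold change is given.

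**Figure D1:**
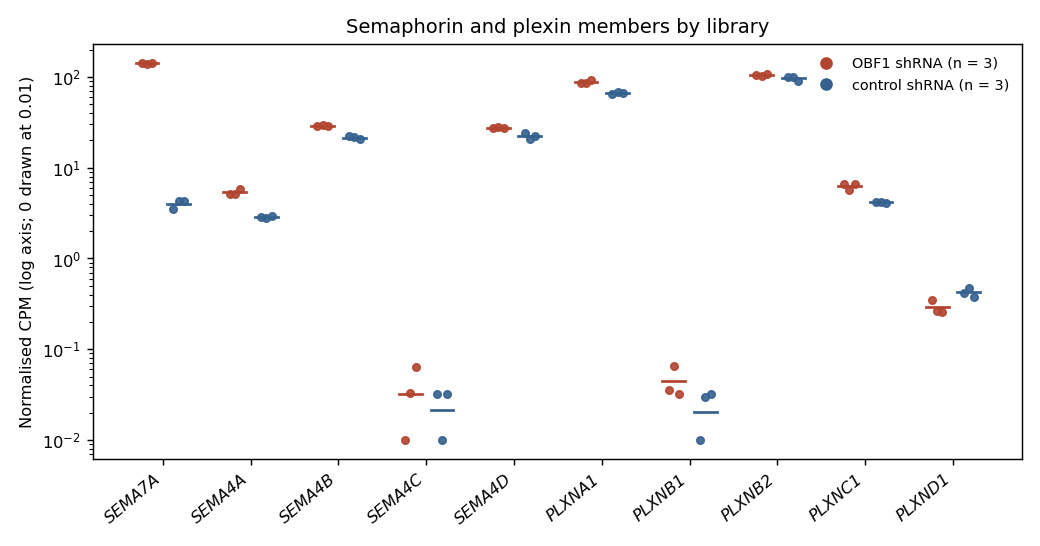
Normalised CPM of the 10 members in each library on a log axis, with OBF1 shRNA left of control shRNA, points for libraries and bars for means (n = 3 each). SEMA7A sits near 141 CPM in OBF1 shRNA and near 4.02 CPM in control libraries, whereas SEMA4C and PLXNB1 lie near 0 in both groups.

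Among the receptors, PLXNC1, the plexin that binds SEMA7A, had 6.61, 5.64 and 6.57 CPM in OBF1 shRNA libraries, against 4.19, 4.23 and 4.06 CPM in control libraries. The groups did not overlap, and the log2 fold change was 0.59 (SE 0.099), or 1.51-fold. The annotated span of PLXNC1 overlaps that of CEP83, so its reads are uncertain too. PLXNA1, a receptor of secreted class 3 semaphorins together with neuropilins, had 85.9, 85.1 and 93.0 CPM in OBF1 shRNA libraries and 65.5, 67.8 and 66.3 CPM in control libraries. Its log2 fold change was 0.40 (SE 0.038), or 1.32-fold, with no overlap.

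PLXNB2, the most abundant member in control cells, differed little between the groups. It had 106, 104 and 107 CPM in OBF1 shRNA libraries, against 101, 100 and 90.6 CPM in control libraries, and a log2 fold change of 0.12 (SE 0.038). With library sizes alone the log2 fold change was 0.01, and without control shRNA replicate 3 it was 0.08. PLXNB1, the high-affinity receptor of SEMA4D, had 1, 2 and 1 reads in OBF1 shRNA libraries and 0, 1 and 1 reads in control libraries, too few for a fold change. PLXND1, the receptor of SEMA3E, was also rare, with 10, 8 and 8 reads in OBF1 shRNA and 13, 16 and 12 reads in control libraries. It passed the filter through 3 control libraries and 1 OBF1 shRNA library, and its log2 fold change was -0.56 (SE 0.34).

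In all, 8 of the 10 members passed the low-count filter. The adjusted p of the edgeR quasi-likelihood test was under 0.05 for 7 of these 8, each of them higher in OBF1 shRNA libraries. Of all 12010 genes tested, 75.4% were called in either direction, 37.5% higher and 37.9% lower. Of the 8 tested members, 7 had every OBF1 shRNA library above every control library and 1, PLXND1, had every one below. Among all tested genes 76.6% were separated in this way, 38% above and 38.7% below. A change of at least 2-fold was seen in 1 of the 8, SEMA7A, and 10.9% of all tested genes were called with a change of that size in either direction, and 6.59% in the upward direction. The median log2 fold change of the 8 was 0.42, against -0.01 over all tested genes. Since the members were chosen with this contrast in view, and 2 could not be tested, nothing is read from these counts.

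Per gene length SEMA7A moved to the top of the semaphorins, past SEMA4B and SEMA4D. Levels per length are CPM divided by the deposited gene length in kilobases (kb), which lets genes be compared with each other. In OBF1 shRNA libraries SEMA7A led the semaphorins at 40.9 ± 0.724 CPM per kb, followed by SEMA4B at 6.37 ± 0.0415, SEMA4D at 2.75 ± 0.0410 and SEMA4A at 1.49 ± 0.111 CPM per kb (SD, n = 3). In control libraries SEMA4B led at 4.70 ± 0.170, followed by SEMA4D at 2.25 ± 0.170, SEMA7A at 1.17 ± 0.133 and SEMA4A at 0.786 ± 0.0218 CPM per kb (SD, n = 3). SEMA4C came last of the 5 member semaphorins in each group, with at most 2 reads in each of the libraries. Other semaphorins, such as SEMA6A and SEMA6D with 0 reads, lay lower still. The 5 member plexins kept the order PLXNB2, PLXNA1, PLXNC1, PLXND1 and PLXNB1 in both groups. PLXNA3, which is not a member, lay between PLXNA1 and PLXNC1. It had 1.17 ± 0.124 CPM per kb in OBF1 shRNA and 1.27 ± 0.280 CPM per kb in control libraries (SD, n = 3). PLXNB2 stood at 15.8 ± 0.244 CPM per kb in OBF1 shRNA and 14.6 ± 0.852 CPM per kb in control libraries (SD, n = 3). No neighbours in these orders of members overlapped in their 3 libraries of a group.

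The summed semaphorin RNA per length was mostly SEMA7A in knockdown cells and mostly SEMA4B and SEMA4D in control cells. All 20 semaphorin genes together gave 52.4 ± 0.740 CPM per kb in OBF1 shRNA libraries and 9.85 ± 0.277 CPM per kb in control libraries (SD, n = 3). SEMA7A made up 78.1 ± 0.297% of the sum in OBF1 shRNA libraries and 11.9 ± 1.65% in control libraries (SD, n = 3). Without SEMA7A the sum was 11.4 ± 0.0624 CPM per kb in OBF1 shRNA libraries and 8.68 ± 0.405 CPM per kb in control libraries. The 9 plexins summed to 26.1 ± 0.593 CPM per kb in OBF1 shRNA libraries and 22.7 ± 1.05 CPM per kb in control libraries. PLXNB2 made up 60.6 ± 0.496% of that sum in OBF1 shRNA libraries and 64.2 ± 0.870% in control libraries, while PLXNA1 made up 31.7 ± 0.977% in OBF1 shRNA libraries and 27.6 ± 1.38% in control libraries. Semaphorins thus outweighed plexins 2.00 ± 0.0263 to 1 in OBF1 shRNA libraries, where the ratio was 0.434 ± 0.0202 in control libraries.

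**Figure D2:**
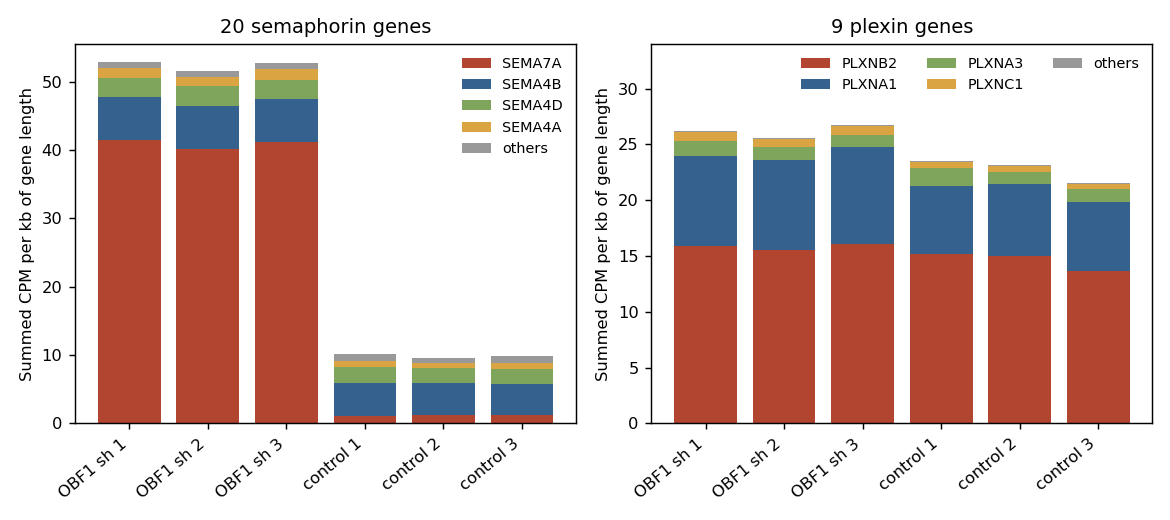
Summed CPM per kb of gene length in each library, for 20 semaphorin genes on the left and 9 plexin genes on the right, with OBF1 shRNA libraries left of control libraries and colours for genes. The semaphorin sum is near 52.4 in OBF1 shRNA and near 9.85 in control libraries, and SEMA7A fills most of the taller bars.

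Ligands and their known receptors differed unequally. SEMA7A exceeded PLXNC1 by a ratio of 51.4 ± 3.80 per length in OBF1 shRNA libraries and 2.20 ± 0.270 in control libraries (SD, n = 3). SEMA7A also binds integrins with the beta 1 chain. ITGB1, which encodes that chain, was 1.18-fold lower in OBF1 shRNA libraries, with 173, 183 and 178 CPM in OBF1 shRNA libraries against 204, 211 and 214 CPM in control libraries (edgeR adjusted p = 7.7e-07). ITGA1, the alpha chain known to pair with it as a SEMA7A receptor, had at most 1 read in each of the libraries. For SEMA4D, CD72, which encodes its receptor on B cells, was 2.94-fold higher, with 23.4, 22.8 and 23.2 CPM in OBF1 shRNA libraries against 7.97, 8.30 and 7.36 CPM in control libraries (edgeR adjusted p = 1.46e-13). All knockdown libraries lay above all control libraries. CD72 exceeded SEMA4D per length by a ratio of 3.40 ± 0.0944 in OBF1 shRNA and 1.42 ± 0.168 in control libraries (SD, n = 3). CD72 overlaps TESK1 in the annotation, so its reads are less certain.

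**Figure D3:**
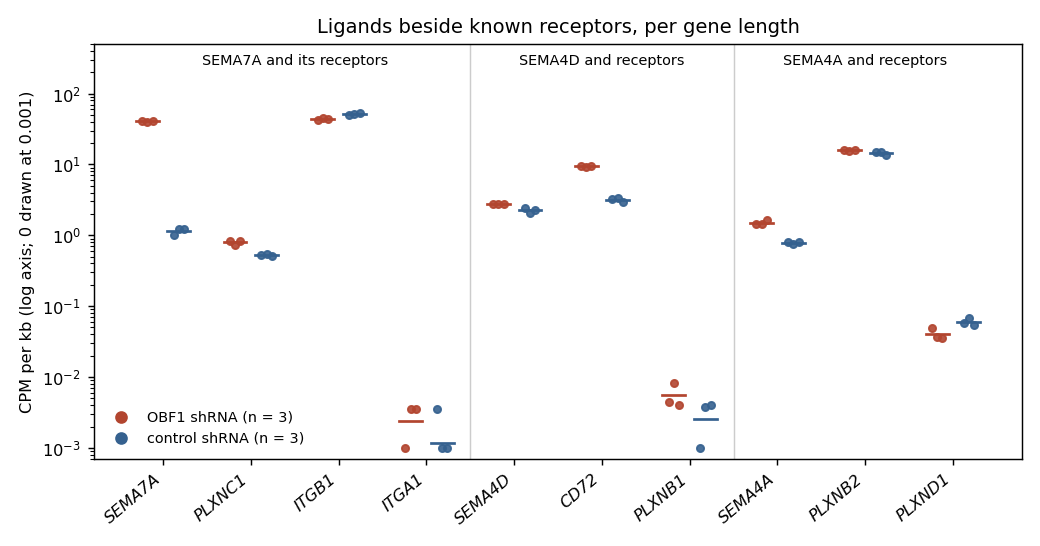
CPM per kb of SEMA7A, SEMA4D and SEMA4A beside genes of their known receptors, on a log axis with OBF1 shRNA left of control shRNA, points for libraries and bars for means (n = 3 each). SEMA7A and CD72 are higher in OBF1 shRNA libraries, while ITGB1 is 1.18-fold lower and ITGA1 and PLXNB1 are near 0.

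The wider list of co-receptors and receptors other than plexins held 11 genes, of which 5 were tested. Leaving NRP2 aside, which entered the test through the group where it is high, CD72 rose and 3 genes fell, where 37.5% of all tested genes were called higher and 37.9% lower. NRP2, the co-receptor of class 3 semaphorins such as SEMA3F, had 80, 97 and 101 reads in OBF1 shRNA libraries against 3, 1 and 3 reads in control libraries. The ratio of the rates was 42.4, with an exact 95% counting interval of 20.3 to 106. NRP2 passed the low-count filter through its OBF1 shRNA libraries alone, so no test is given. It reached only 3.07 ± 0.225 CPM in OBF1 shRNA libraries (SD, n = 3). NRP1, its relative, had at most 1 read in each of the libraries. The T and NK cell marker sum given above was also higher in OBF1 shRNA libraries. NKG7, named after its values were seen, made up most of it, with 24, 24 and 23 reads in OBF1 shRNA libraries against 1, 7 and 6 reads in control libraries. The other 6 of these markers had at most 4 reads in each of the libraries, and the part of such cells in the NRP2 difference was not tested.

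The tested receptor kinases MET and ERBB2 fell. MET, which associates with plexin B1, had 65.4, 68.2 and 64.3 CPM in OBF1 shRNA libraries against 90.0, 91.2 and 88.8 CPM in control libraries, 1.37-fold lower (edgeR adjusted p = 1.17e-09). ERBB2, another partner of B plexins and named after its values were seen, was 1.48-fold lower (edgeR adjusted p = 1.35e-05). It overlaps MIEN1 in the annotation. LILRB2, a receptor proposed for SEMA4A, was not tested, with 4, 4 and 6 reads in OBF1 shRNA and 1, 0 and 0 reads in control libraries.

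Most other semaphorins and plexins were not expressed at a level that could be tested. Of 15 further semaphorins, 3 passed the filter, 0 were called higher and 1 was called lower. Among all tested genes 37.5% were called higher and 37.9% lower. SEMA6C, a transmembrane class 6 semaphorin, had 0.915, 0.722 and 0.926 CPM in OBF1 shRNA libraries against 1.60, 0.952 and 1.24 CPM in control libraries (edgeR adjusted p = 0.0374). That call was lost with DESeq2 (adjusted p = 0.117) and limma-voom (adjusted p = 0.0542). Leaving out OBF1 shRNA replicate 1 (edgeR adjusted p = 0.0594) or 2 (0.135) ended it too, as did leaving out control shRNA replicate 1 (0.202) or 3 (0.068). SEMA3G, a secreted semaphorin of class 3, averaged 1.33 ± 0.0807 CPM in OBF1 shRNA and 1.09 ± 0.162 CPM in control libraries (SD, n = 3; edgeR adjusted p = 0.186). SEMA4F averaged 1.87 ± 0.141 CPM in OBF1 shRNA and 2.01 ± 0.157 CPM in control libraries (SD, n = 3; edgeR adjusted p = 0.541).

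SEMA3E, the ligand of plexin D1, had 4, 5 and 7 reads in OBF1 shRNA and 16, 10 and 11 reads in control libraries, under the filter. SEMA5B had 4, 3 and 6 reads in OBF1 shRNA and 1, 0 and 0 reads in control libraries. Both were named after their reads were seen. The other 10 untested semaphorins had at most 3 reads in each of the libraries, which does not show that they are absent. Of 4 further plexins, PLXNA3 alone was tested, a partner of neuropilin 2. PLXNA3 overlaps LAGE3 in the annotation, so its reads are less certain. It averaged 7.91 ± 0.838 CPM in OBF1 shRNA and 8.55 ± 1.89 CPM in control libraries (SD, n = 3; edgeR adjusted p = 0.411), and its groups overlapped. Control shRNA replicate 1 stood apart at 10.7 CPM, where the other control libraries had 7.56 and 7.36 CPM.

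Genes that act below plexins changed in both directions. Of 34 genes on the signalling list, 26 were tested, 15 rose, 7 fell and 4 were not called, so 22 of 26 were called where 75.4% of all tested genes were. MICAL1, an actin-oxidising enzyme recruited by A plexins, had 109, 109 and 105 CPM in OBF1 shRNA libraries against 46.0, 43.5 and 43.5 CPM in control libraries, 2.43-fold higher (edgeR adjusted p = 5.25e-16). LIMK1, the kinase that inactivates cofilin, was 2.30-fold higher, at 64.5 ± 1.76 CPM in OBF1 shRNA and 28.1 ± 1.40 CPM in control libraries (SD, n = 3; edgeR adjusted p = 2.65e-14). CFL1, cofilin itself, was 1.60-fold higher, at 1104 ± 28.8 CPM in OBF1 shRNA and 689 ± 14.4 CPM in control libraries (SD, n = 3; edgeR adjusted p = 5.85e-14). FYN, the Src family kinase that phosphorylates A plexins, was 1.99-fold lower, with 70.6, 73.3 and 72.3 CPM in OBF1 shRNA libraries against 135, 147 and 147 CPM in control libraries (edgeR adjusted p = 2.39e-14).

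The smallest shifts on the signalling list depended on settings. The GTPase gene RAC1, the exchange factor gene FARP2 and ARHGAP35 were named here after their values were seen. RAC1 was called higher with a log2 fold change of 0.07 and had -0.04 with library sizes alone. It lost its call without OBF1 shRNA replicate 1 (edgeR adjusted p = 0.0595) or 3 (0.0615) and without control shRNA replicate 1 (0.0699). ARHGAP35 was called lower with -0.07 (edgeR adjusted p = 0.0389), and 4 other settings and 4 of 6 left-out libraries ended that call. FARP2 lost its call as higher with library sizes alone (edgeR adjusted p = 0.0664).

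ADAM17, MMP14 and ADAM10, proteases that can release membrane proteins, fell, and FURIN rose. All 4 genes on this list were called, where 75.4% of all tested genes were. ADAM17, a membrane sheddase, had 47.9, 49.4 and 49.3 CPM in OBF1 shRNA libraries against 80.2, 79.0 and 81.9 CPM in control libraries, 1.64-fold lower (edgeR adjusted p = 2.17e-12). MMP14, which cleaves SEMA4D from tumour cells, was 2.18-fold lower, with 0.633, 0.853 and 1.18 CPM in OBF1 shRNA libraries against 1.98, 1.73 and 2.19 CPM in control libraries (edgeR adjusted p = 9.78e-05). ADAM10 fell by 0.11 on the log2 scale (edgeR adjusted p = 0.00987), a call lost without OBF1 shRNA replicate 1 (adjusted p = 0.0553). FURIN, a proprotein convertase that cuts semaphorins during secretion, was 1.26-fold higher (edgeR adjusted p = 9.72e-05).

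**Figure D4:**
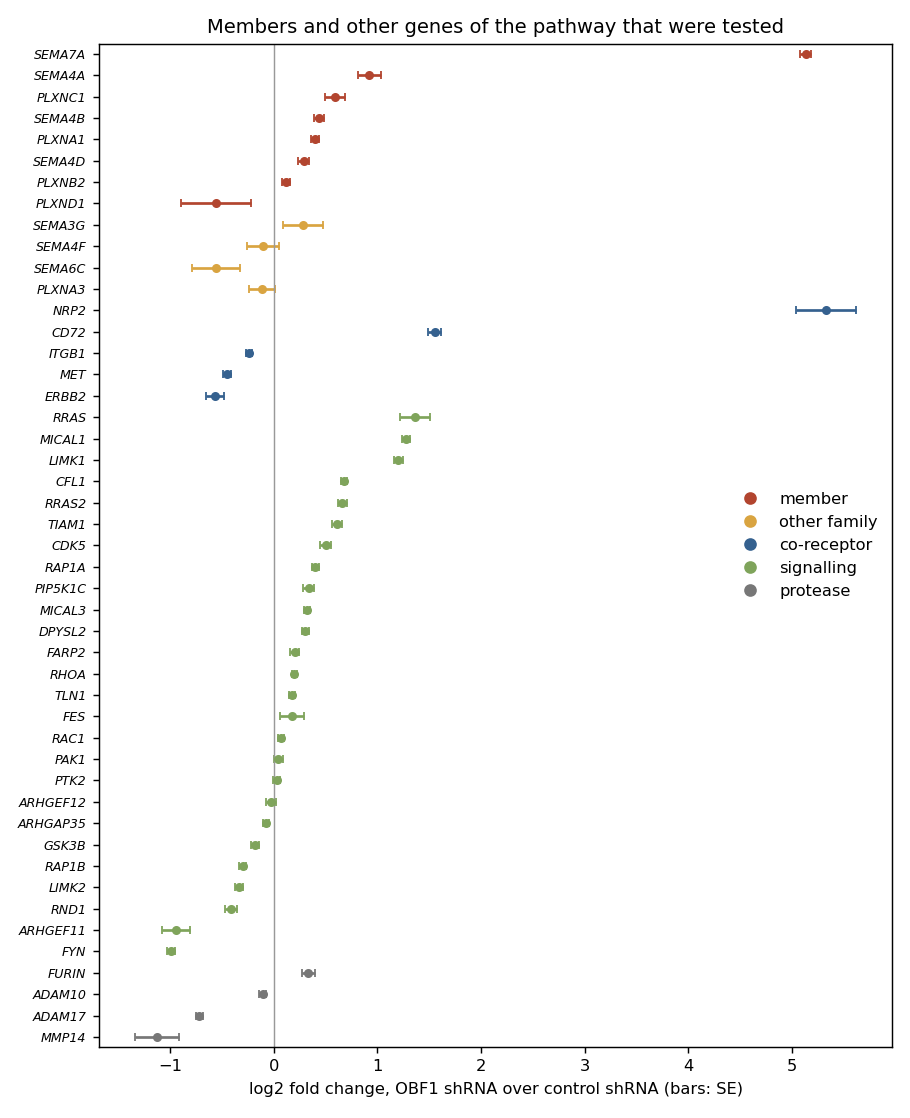
Log2 fold change of OBF1 shRNA over control shRNA for every tested gene of the member, family, co-receptor, signalling and protease lists, with SE as bars and colours for lists. SEMA7A at 5.13 stands apart from the other members, which lie between -0.56 and 0.92. The NRP2 point is a fitted value from few control reads.

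The 5 genes whose pattern over the 6 libraries lay nearest to that of SEMA7A were FCRL5, PTPN6, TNFRSF9, SLAMF1 and CCL22. Likeness was the Euclidean distance between log2(CPM + 0.5) values, each centred on its control mean, over 9606 other genes that averaged 5 CPM or more. FCRL5, an Fc receptor-like protein, was nearest at a distance of 0.222. PTPN6, the SHP-1 phosphatase, followed at 0.919, TNFRSF9, the costimulatory receptor 4-1BB, at 0.991, SLAMF1, a self-binding lymphocyte receptor, at 1.06 and the chemokine gene CCL22 at 1.11. With 2 groups this measure mostly ranks genes by the size of the gain and its evenness within groups. The added 0.5 CPM compresses the gain of genes as low in control cells as FCRL5, at 0.226 CPM, against 4.02 CPM for SEMA7A.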

How the data were processed

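The authors deposited 1 table of raw counts per gene with gene lengths for 6 libraries. Per the labels' protocols, library preparation kept strand and selected mRNA. The submitters' processing notes list the builds hg19 and mm9. For the aligner, counter, annotation and strand setting nothing is given in the sources used here, so reads of overlapping genes are uncertain. Of 23459 numeric gene identifiers, 23308 matched a symbol in a RefSeq table (GRCh38.p14). All 6 count columns were used.

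The deposited counts were fitted with edgeR 4.0.16 (R 4.3.3), using filterByExpr (minimum 10 counts, 15 in total), TMM scaling and the quasi-likelihood F test on all 6 libraries, with Benjamini-Hochberg adjustment over 12010 genes at 0.05. SE was taken as the absolute log2 fold change over the root of F. CPM (counts per 1000000) use TMM-scaled library sizes. Counting intervals and floors cover counting error only. The fit was also run on simulated data in which few genes differed. In these data most genes were called, so that run says nothing of the scaling here.

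The members and lists were chosen with earlier results of these data known. Named are the members, POU2AF1, up to 4 genes with the smallest p from each other list, and the 5 genes most like SEMA7A. Any other gene was named after its values were seen. Alternatives were DESeq2 1.42.0, limma-voom (limma 3.58.1), RLE factors, library sizes alone, other filters, a replicate block and leaving out each library. Chi-square per degree of freedom between libraries of a group was 1.88 to 3.26, more than sampling noise gives.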

Additional observations from a re-analysis of the deposited data

How the results depend on the processing

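No tested member changed its sign in the alternatives run. SEMA7A kept a log2 fold change between 5.02 and 5.18. With library sizes alone, log2 fold changes moved by a median of -0.11 over all tested genes, leaving SEMA4D at 0.18, SEMA4B at 0.33, PLXNA1 at 0.29 and PLXNB2 at 0.01. With that scaling the calls were 3476 higher and 5778 lower, against 4508 and 4550 with TMM. PLXNB2 was then not called, nor was it without control shRNA replicate 3. Thus 6 members were called with library sizes alone, and 6 to 7 with a library left out. Of the other semaphorins 1 was called, against 0 with DESeq2 and 0 with limma-voom. A filter of 1 CPM also gave 0 (SEMA6C was then not tested). No low-count filter gave 4, and a library left out gave 0 to 2. The calls gained without the filter were of genes it removes, with at most 16 reads in each of the libraries. The other plexins gave 0 calls by edgeR, DESeq2 and limma-voom, and 0 at an unadjusted p under 0.05. Over all genes, 9058 were called, and 8632 to 8974 with a library left out.

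Whether the replicate numbers pair the samples cannot be decided from 3 libraries per group. Deviations of libraries with the same number correlated at 0.03, -0.17 and -0.11. Those with unlike numbers correlated at between -0.10 and 0.20. With the number as a replicate block, 8759 genes were called in all. By list these calls covered 7 members, 1 other semaphorin, 0 other plexins, 21 signalling genes and 4 proteases. Leaving NRP2 aside, the tested co-receptor genes CD72, ITGB1, MET and ERBB2 kept their calls with that block. At this depth no difference was detectable in SEMA4C and PLXNB1, both under the floor, and PLXND1 rests on at most 16 reads in each of the libraries.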
